A study of Mus musculus with 20 samples.

Results

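The 10 genes described here are Col11a1, Tex26, Cfap221, Arhgap36, Fat1, Galnt3, Papln, Zdhhc23, Neurl3 and Pipox, out of 24391 genes counted in each sample. They were chosen by measured values, namely strong falls with wild-type BioNICD or with 4-OHT in NICD-ER cells, with no fixed threshold. Their values in those 2 comparisons are therefore given as a description with no test. The remaining comparison, H2A.Z guides against control, was not used in the choice and was tested.

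RNA was sequenced from 20 samples of E2-10HA, a mouse hybridoma labelled as mature T cells, in 6 groups. The groups differed in plasmid, except the NICD-ER groups, which differed from each other in treatment. BioNICD cells carried the bacterial biotin ligase BirA and a biotin-tagged Notch intracellular domain (NICD), in a wild-type form (n = 2) or as a DEP mutant (n = 2), and were selected with histidinol and by sorting. What the DEP mutation changes is not given in the sources used here. NICD-ER cells carried Flag-tagged NICD fused to the binding domain of the estrogen receptor, were sorted, and received (Z)-4-hydroxytamoxifen (4-OHT, n = 2) or its solvent ethanol (EtOH, n = 2) for 24 hours. H2A.Z guide cells carried the lentiCRISPRv2 vector with guide RNAs that target H2afv and H2afz, which encode the histone variant H2A.Z (n = 6, all titled with the same line number), and CRISPR control cells carried the empty vector (n = 6). Both were selected with puromycin. All guide samples share a line number, so what is called a guide effect here cannot be told apart from a trait of that line. Titles, which match the plasmid field, set the CRISPR groups; the descriptions of 6 of the 8 samples numbered 3 to 6 name another group. Among CRISPR samples, those numbered 1 and 2 have a treatment field, unlike those numbered 3 to 6, and the 2 kinds are called label sets 1 and 2. Separate cultures are not stated for any replicates. A p-value here therefore measures how these samples vary, and that variation may be technical.

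Notch is a cell surface receptor whose cleavage releases NICD. NICD enters the nucleus and binds the DNA-binding protein RBPJ with coactivators, which switches on genes such as Hes1, Hey1 and Dtx1; RBPJ without NICD can hold such genes down with corepressors. Hes and Hey proteins are themselves repressors of transcription, and in the thymus Notch signalling directs precursors to the T cell lineage.

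Total counts were 23081893 to 48238324 with wild-type BioNICD, 16371601 to 20725062 with the DEP mutant, 33580638 to 39319068 with 4-OHT, 28866834 to 30823198 with ethanol, 13309111 to 18344298 with the guides and 10704131 to 15440584 in the control. Levels are CPM, the counts of a gene relative to a fixed library total, scaled with TMM factors over the 20 samples. Of 12 T cell marker genes, 10 or 11 reached 1 CPM in each group, at a summed 4444 to 6113 CPM. Hey1, a target of Notch, averaged 434 CPM with wild-type BioNICD and 0.470 CPM with the DEP mutant, and 45.4 CPM with 4-OHT and 0.504 CPM with ethanol. Dtx1, another target, averaged 1629 CPM with wild-type BioNICD and 1.71 CPM with the DEP mutant, and 363 CPM with 4-OHT and 28.4 CPM with ethanol, against 0.211 CPM in the CRISPR control. Notch1, whose counts include reads from the introduced NICD, averaged 282 CPM with wild-type BioNICD and 643 CPM with the DEP mutant, and 92.0 CPM with 4-OHT and 98.4 CPM with ethanol. H2afz stood at a mean of 5.19 CPM in guide samples, against 28.2 CPM in controls, and H2afv at 36.0 CPM, against 127 CPM.

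Promoter windows are shown for 3 of the 4 genes that were at least 2-fold lower in both NICD comparisons (Papln, Zdhhc23 and Tex26) and for Pipox, which went in opposite directions. They are RefSeq windows of the GRCm38.p6 build, 250 bases before to 50 after the annotated start, while the counts used mm9. All 10 genes had a window, and Arhgap36 had 2. Capitals mark matches, on either strand, to the RBPJ core TGGGAA or its longer form GTGGGAA, which contains the core, and to the Hes and Hey type sites CACGTG and CACGCG. The windows lie at chr12:83763384-83763683 on the plus strand for Papln, chr16:43979760-43980059 on the minus strand for Zdhhc23, chr5:149439410-149439709 on the plus strand for Tex26 and chr11:77893823-77894122 on the minus strand for Pipox, each written 5′ to 3′ along its gene.
Papln: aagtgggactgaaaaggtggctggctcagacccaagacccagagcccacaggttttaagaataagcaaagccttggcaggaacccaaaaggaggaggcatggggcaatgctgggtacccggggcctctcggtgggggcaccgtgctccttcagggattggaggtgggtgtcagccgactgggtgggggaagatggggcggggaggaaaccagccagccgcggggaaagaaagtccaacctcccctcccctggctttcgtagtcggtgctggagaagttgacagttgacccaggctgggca
Zdhhc23: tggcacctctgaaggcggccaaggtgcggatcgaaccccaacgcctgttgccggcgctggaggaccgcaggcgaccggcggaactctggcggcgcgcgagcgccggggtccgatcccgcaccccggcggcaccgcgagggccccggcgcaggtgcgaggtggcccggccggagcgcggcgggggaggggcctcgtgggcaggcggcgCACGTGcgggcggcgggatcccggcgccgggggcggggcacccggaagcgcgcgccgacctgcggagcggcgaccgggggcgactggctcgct
Tex26: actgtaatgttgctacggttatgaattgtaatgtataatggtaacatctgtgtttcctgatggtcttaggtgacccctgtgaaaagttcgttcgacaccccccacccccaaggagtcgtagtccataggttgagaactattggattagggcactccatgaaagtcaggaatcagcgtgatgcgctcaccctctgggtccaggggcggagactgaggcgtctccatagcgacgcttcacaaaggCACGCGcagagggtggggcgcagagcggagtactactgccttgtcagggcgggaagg
Pipox: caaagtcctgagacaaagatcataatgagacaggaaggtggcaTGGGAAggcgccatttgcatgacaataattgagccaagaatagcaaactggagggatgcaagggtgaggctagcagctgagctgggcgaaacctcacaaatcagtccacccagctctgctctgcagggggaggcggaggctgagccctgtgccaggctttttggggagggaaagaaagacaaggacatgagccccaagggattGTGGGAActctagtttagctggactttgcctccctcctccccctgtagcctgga

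Papln held none of these letters in its window. Zdhhc23 held CACGTG, beginning 43 bases before the start, as did 7.15% of all 32851 windows. Tex26 held CACGCG 7 bases before its start, and Galnt3 held it 241 bases before; 9.27% of all windows did. Pipox held the core beginning 207 bases before the start and GTGGGAA beginning 4 bases before it. The core was in 25.6% of all windows and the longer form in 6.38%. Among the 10 genes the core was also found in Cfap221 and Fat1. The RefSeq start used for Fat1 lies 14761 bases inside the gene as GENCODE annotates it, so its window is not that of the outermost start and is not shown. The windows of Col11a1, Arhgap36 and Neurl3 held none of the motifs. The RefSeq start lies 1254 bases from the GENCODE gene start for Neurl3 and 6505 for the second Arhgap36 window. It lies 224 bases away for Pipox and 201 for Galnt3, so their motif positions hold for the RefSeq start alone. The GC content of the 11 windows ran from 42.7% in Fat1 to 80.7% in Zdhhc23, beside a median of 52.7% over all windows. A match is a description of the sequence and does not show binding.

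**Figure D1:**
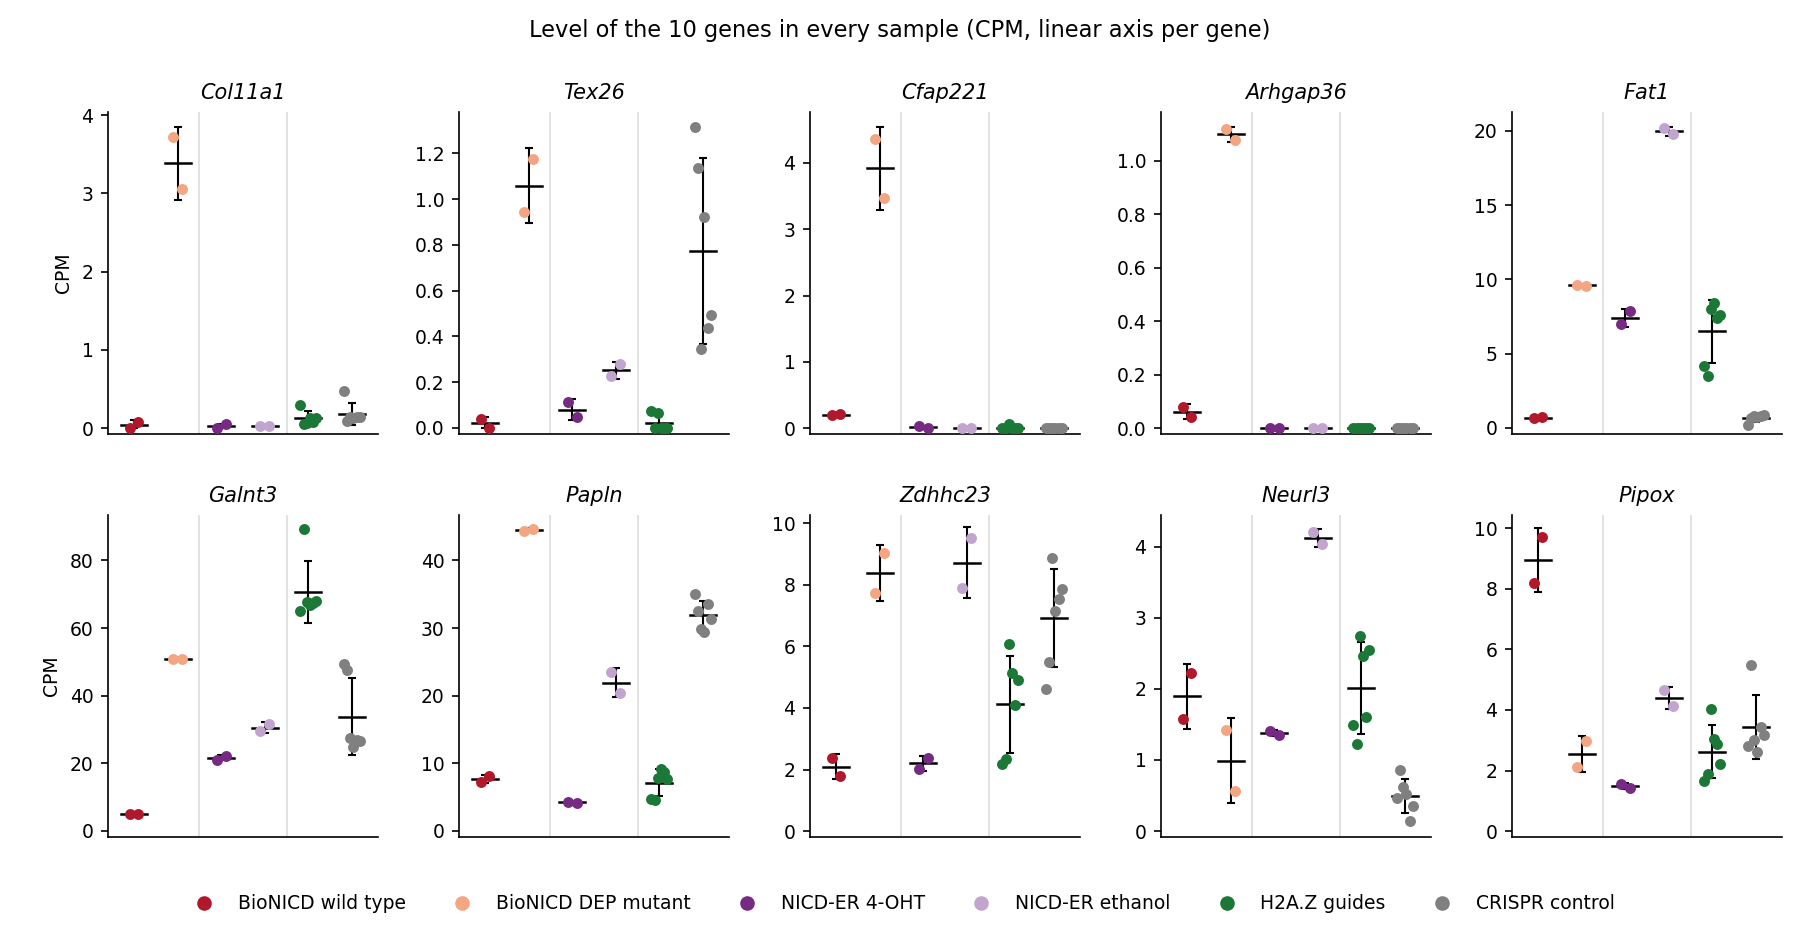
CPM (vertical, linear, own scale per gene) of the 10 genes in every sample, with groups in the order of the legend; points are samples, lines group means and bars SD (n = 2, or 6 for the CRISPR groups). Col11a1, Cfap221 and Arhgap36 stand out in the DEP mutant samples alone, while Papln is low with wild-type BioNICD, with 4-OHT and with the guides.

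In the BioNICD comparison, 8 of the 10 genes had a fitted level at least 2-fold lower with wild-type NICD than with the DEP mutant, and in NICD-ER cells 6 of the 10 were at least 2-fold lower with 4-OHT than with ethanol. Among all 12499 genes in the model, 4.05% and 1.51% were that low; since the choice of genes used these contrasts, nothing is read from the difference. Tex26, Fat1, Papln and Zdhhc23 were at least 2-fold lower in both, Col11a1, Cfap221, Arhgap36 and Galnt3 in the BioNICD comparison alone, and Neurl3 and Pipox in NICD-ER cells alone. The median log2 fold change of the 10 was -3.62 in the BioNICD comparison, beside -0.02 over all genes in the model. It was -1.58 in NICD-ER cells over the 7 genes with more than 3 counts in either group, beside 0.00 over all genes.

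A description of the 10 as genes reduced by active NICD did not hold for every member. Col11a1, Cfap221 and Arhgap36 were at or near 0 in every group but the DEP mutant, including controls without introduced NICD. For Col11a1 the wild-type BioNICD samples overlapped the guide and both NICD-ER groups. For Cfap221 and Arhgap36 the wild-type BioNICD samples lay above every sample of the 4 other low groups, for Arhgap36 on 5 counts in all. Neurl3 and Pipox were higher, not lower, with wild-type BioNICD. Papln, Galnt3, Zdhhc23 and Tex26 were lower with wild-type BioNICD than in every DEP mutant and every CRISPR control sample, and lower with 4-OHT than in both ethanol samples. In bulk RNA, fewer cells expressing a gene and less RNA per cell cannot be told apart. Per kb of exon, the highest means with the DEP mutant were those of Galnt3 (13.8 CPM per kb), Papln (10.2) and Zdhhc23 (6.55), and the lowest those of Arhgap36 (0.362) and Neurl3 (0.383).

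Of the genes for matrix and cell surface proteins, Papln encodes papilin, a secreted matrix glycoprotein related to the ADAMTS-like proteins (mm9 chromosome 12, 85104584 to 85133334, plus strand, 28 exons). Papln had 7.24 and 8.07 CPM with wild-type BioNICD, against 44.3 and 44.7 CPM with the DEP mutant, a log2 fold change of -2.58. It had 4.30 and 4.21 CPM with 4-OHT, against 23.4 and 20.4 CPM with ethanol, a log2 fold change of -2.36. Papln was thus low in both groups with active NICD and high in both of their counterparts, with no overlap. The CRISPR controls, at 29.4 to 35.0 CPM, lay between the DEP mutant and the ethanol samples. In the NICD model, 50 genes had a lower log2 fold change than Papln in the BioNICD comparison and 9 in the NICD-ER comparison. The genes were chosen for such falls, so nothing is read from these ranks.

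Fat1 encodes a giant atypical cadherin of the cell surface (chromosome 8, 46035562 to 46137611, plus strand, 26 exons). Fat1 had 0.643 and 0.711 CPM with wild-type BioNICD, against 9.61 and 9.58 CPM with the DEP mutant (log2 fold change -3.86). It had 6.996 and 7.85 CPM with 4-OHT, against 20.2 and 19.8 CPM with ethanol (-1.42). The 4-OHT samples therefore still had about the level of the guide samples, at 3.52 to 8.42 CPM, which they overlapped. The wild-type BioNICD samples overlapped the CRISPR controls, which ran from 0.188 to 0.843 CPM, so for Fat1 the wild-type samples were low relative to the DEP mutant and not to the control.

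Col11a1 encodes a chain of type XI collagen, a fibrillar collagen of cartilage (chromosome 3, 113733458 to 113923244, plus strand, 67 exons). It had 0 and 0.0837 CPM with wild-type BioNICD, a total of 2 counts, against 3.72 and 3.05 CPM with the DEP mutant, a total of 128 counts. The pooled level was 123 times higher in the DEP mutant than with wild-type BioNICD (95% counting interval 33.4 to 1029). The genes were chosen for such falls, so this interval shows the precision of the counts and is no test. Such intervals and limits account for counting error alone. They pool the replicates and leave out variation between samples, and the reads carry no molecular identifiers. In NICD-ER cells there were 2 counts with 4-OHT and 2 with ethanol, and in the CRISPR samples 11 with the guides and 14 in the control. Col11a1 was thus a gene of the DEP mutant samples, and the level elsewhere never passed 0.470 CPM.

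Of the enzymes, Galnt3 transfers the first sugar of mucin-type O-glycans (chromosome 2, 65920823 to 65962850, minus strand, 11 exons). Galnt3 had 4.94 CPM in each wild-type BioNICD sample, against 51.0 and 50.7 CPM with the DEP mutant (log2 fold change -3.38). It had 21.1 and 22.2 CPM with 4-OHT, against 29.5 and 31.6 CPM with ethanol (-0.49). The wild-type BioNICD samples were the lowest of all 20, below the controls at 24.9 to 49.3 CPM, while the 4-OHT and ethanol samples differed by less than 2-fold without overlapping.

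Zdhhc23 encodes a palmitoyltransferase of the DHHC family, which attaches fatty acids to proteins (chromosome 16, 43969259 to 43979163, minus strand, 4 exons). Zdhhc23 had 2.37 and 1.80 CPM with wild-type BioNICD, against 7.72 and 9.02 CPM with the DEP mutant (log2 fold change -1.97). It had 2.02 and 2.37 CPM with 4-OHT, against 7.90 and 9.53 CPM with ethanol (-1.98). The 2 comparisons gave nearly equal sizes, and the samples with active NICD overlapped each other, as did the DEP mutant, ethanol and control samples.

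Neurl3 encodes an E3 ubiquitin ligase of the Neuralized family, whose founding member in Drosophila promotes endocytosis of Notch ligands (chromosome 1, 36321447 to 36330270, minus strand, 4 exons). Neurl3 had 1.57 and 2.22 CPM with wild-type BioNICD, against 1.42 and 0.564 CPM with the DEP mutant (log2 fold change 0.91). It had 1.41 and 1.34 CPM with 4-OHT, against 4.21 and 4.03 CPM with ethanol (-1.58). The DEP mutant replicates differed more from each other than the nearest samples of the 2 BioNICD groups did. Without DEP mutant replicate 1 the fitted value was 1.65, and without replicate 2 it was 0.32.

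Pipox encodes the peroxisomal oxidase of sarcosine and pipecolic acid (chromosome 11, 77694117 to 77707374, minus strand, 8 exons). Pipox had 8.20 and 9.70 CPM with wild-type BioNICD, against 2.12 and 2.96 CPM with the DEP mutant (log2 fold change 1.75). It had 1.54 and 1.42 CPM with 4-OHT, against 4.66 and 4.13 CPM with ethanol (-1.57). The wild-type BioNICD samples were the highest of all 20 for this gene and the 4-OHT samples the lowest.

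Of the remaining genes, Tex26, a testis-expressed gene (chromosome 5, 150242281 to 150273195, plus strand, 7 exons), had 0.0402 and 0 CPM with wild-type BioNICD, against 0.944 and 1.17 CPM with the DEP mutant. These values rest on 2 and 41 counts, and the pooled level was 39.5 times higher in the DEP mutant (95% counting interval 10.3 to 337). As for Col11a1, this interval is no test, since the genes were chosen for such falls. Tex26 had 0.112 and 0.0489 CPM with 4-OHT, against 0.227 and 0.279 CPM with ethanol, from 6 and 16 counts (fitted log2 fold change -1.64). Its level was low throughout, but neither NICD comparison had overlapping samples.

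Cfap221 encodes a protein of the central apparatus of motile cilia (chromosome 1, 121820096 to 121891787, minus strand, 23 exons), and Arhgap36 a protein that inhibits protein kinase A (chromosome X, 46823627 to 46853427, plus strand, 13 exons). Cfap221 had 0.201 and 0.209 CPM with wild-type BioNICD, against 4.36 and 3.48 CPM with the DEP mutant (log2 fold change -4.25). Arhgap36 had 0.0804 and 0.0418 CPM with wild-type BioNICD, against 1.12 and 1.08 CPM with the DEP mutant (-3.96). Both were nearly absent elsewhere. In the CRISPR controls neither gene had a count, which allows up to 0.0380 CPM over the group. Both wild-type BioNICD samples lay well above that limit for Cfap221. For Arhgap36 they rested on 4 counts and 1 count, and the lower one was under the limit of 0.0475 CPM in the ethanol samples. A level of Arhgap36 above that of the other groups is therefore not shown. In NICD-ER cells Cfap221 had 1 count with 4-OHT and 0 with ethanol, and Arhgap36 had 0 in both, so no fold is given.

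**Figure D2:**
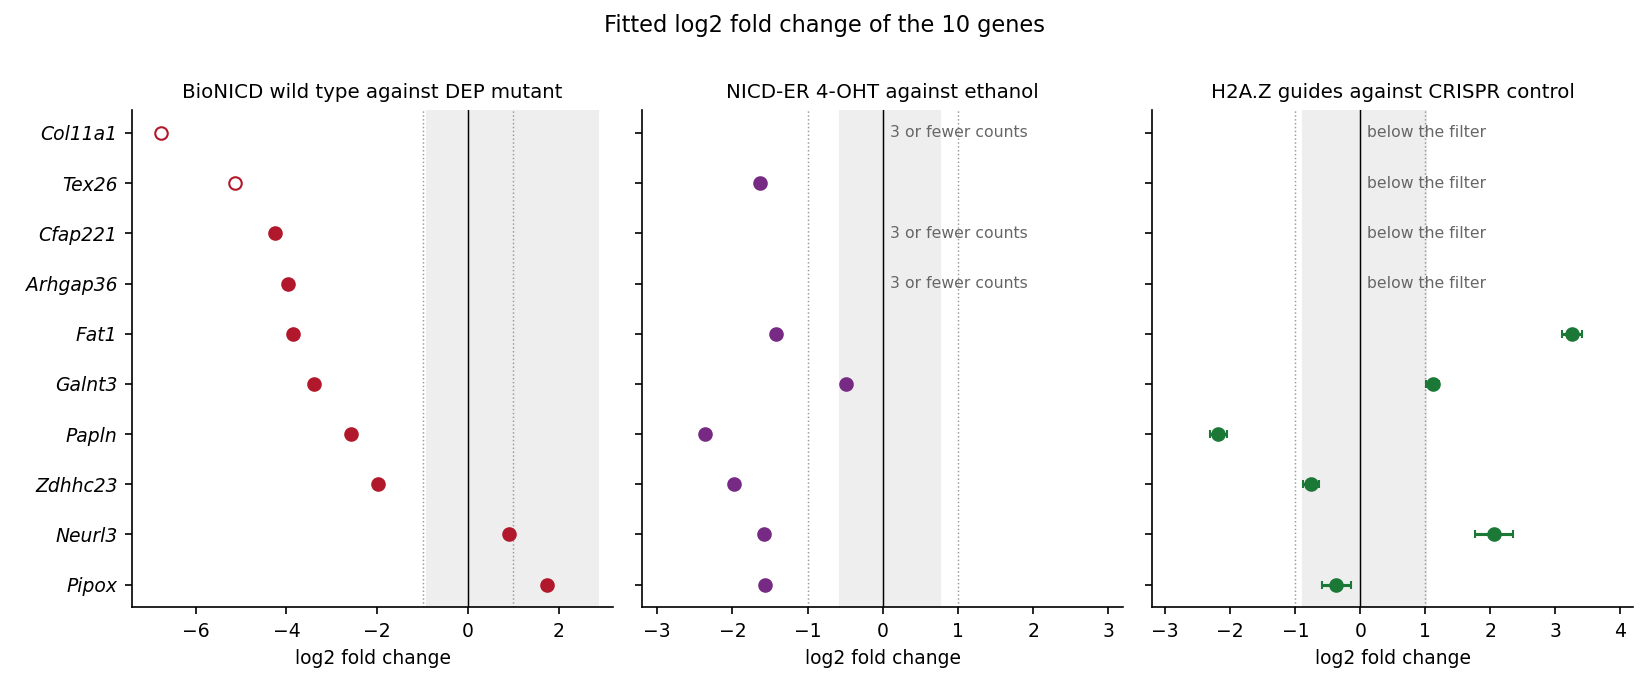
Fitted log2 fold change (horizontal) of the 10 genes in the 3 comparisons; grey bands span the 5th to the 95th percentile of all genes in the model, dotted lines mark 2-fold, open points rest on 3 or fewer counts with wild-type BioNICD, and bars are SE, given for the guides alone. In the guides, Fat1, Galnt3 and Neurl3 lie on the higher side and Papln and Zdhhc23 on the lower.

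With the H2A.Z guides, 6 of the 10 genes passed the filter on low counts. Of these, Fat1, Galnt3 and Neurl3 were higher and Papln and Zdhhc23 lower than in the control at an adjusted p under 0.05 (edgeR quasi-likelihood test, Benjamini-Hochberg adjustment over 10662 genes). That is 3 of 6 higher and 2 of 6 lower, where 31.8% of all genes tested were higher and 32.7% lower. At 2-fold or more, 3 were higher and 1 lower, against 5.05% and 4.21% of all genes. Every guide sample lay above every control for Fat1, Galnt3 and Neurl3, which held for 17.1% of all genes, and below for Papln, which held for 16.5%. The median log2 fold change of the 6 was 0.37, beside -0.01 over all genes. The 10 genes thus did not move together with the guides.

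Fat1 ran from 3.52 to 8.42 CPM with the guides (median 7.47), against 0.188 to 0.843 CPM in the control (median 0.763). The fitted log2 fold change of Fat1 was 3.25, with an SE of 0.152 and an adjusted p of 2.94e-11. Genes of chromosome 8, where Fat1 lies, had a median log2 fold change of 0.51 with the guides over 572 genes, with 91.6% above 0. On the other chromosomes that hold a tested member it was between -0.07 and 0.04. Fat1 was 9.53-fold higher, against a chromosome 8 median of 1.42-fold, and the part of the chromosome in the Fat1 result was not tested.

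Galnt3 ran from 65.0 to 89.3 CPM with the guides (median 67.5), against 24.9 to 49.3 CPM in the control (median 27.2). On the log2 scale this was 1.11 higher, with an SE of 0.104 and an adjusted p of 1.25e-07. The guide samples were thus the highest of all 6 groups for Galnt3. Neurl3 ran from 1.23 to 2.75 CPM with the guides (median 2.03), against 0.146 to 0.852 CPM in the control (median 0.498), higher by 2.06 on the log2 scale (SE 0.295, adjusted p = 1.49e-05). In label set 1 alone, Neurl3 missed the threshold (1.02, adjusted p = 0.136).

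Papln was the gene among the 6 that fell the most. It ran from 4.64 to 9.20 CPM with the guides (median 7.75), against 29.4 to 35.0 CPM in the control (median 31.9), a difference of -2.18 on the log2 scale (SE 0.128, adjusted p = 4.78e-10). Its guide samples overlapped the wild-type BioNICD samples and lay above the 4-OHT samples. Zdhhc23 ran from 2.16 to 6.07 CPM with the guides (median 4.49), against 4.61 to 8.86 CPM in the control (median 7.35), a difference of -0.77 on the log2 scale (SE 0.124, adjusted p = 4.93e-05). The groups overlapped for Zdhhc23 over all samples. Within label set 1 the guides stood at 2.16 and 2.35 CPM, against 4.61 and 5.49 CPM in the control, and within set 2 at 4.09 to 6.07 against 7.16 to 8.86 CPM, so that neither set overlapped.

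Pipox ran from 1.64 to 4.02 CPM with the guides (median 2.55), against 2.63 to 5.49 CPM in the control (median 3.09). The groups overlapped, and the difference of -0.37 on the log2 scale (SE 0.224) missed the threshold at an adjusted p of 0.157. Without guide replicate 3 it passed (-0.54, adjusted p = 0.0425).

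Tex26, Col11a1, Cfap221 and Arhgap36 did not pass the filter in the CRISPR samples. Tex26 had 2 counts over the 6 guide samples and 58 over the 6 controls, at 0 to 0.0746 CPM with the guides (median 0) and 0.343 to 1.32 CPM in the control (median 0.706). The pooled level was 33.1 times higher in the control (95% counting interval 8.77 to 280.2). Every guide sample lay below every control (two-sided exact permutation test, p = 0.00217, the smallest that 6 against 6 samples can give). Genes of chromosome 5, where Tex26 lies, had a median log2 fold change of -0.33 with the guides over 682 genes, and its part was not tested. Col11a1 averaged 0.126 CPM in guide samples, against 0.187 CPM in controls (exact permutation test, two-sided p = 0.448). Cfap221 had 1 count with the guides and 0 in the control, and Arhgap36 had 0 in both.

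**Figure D3:**
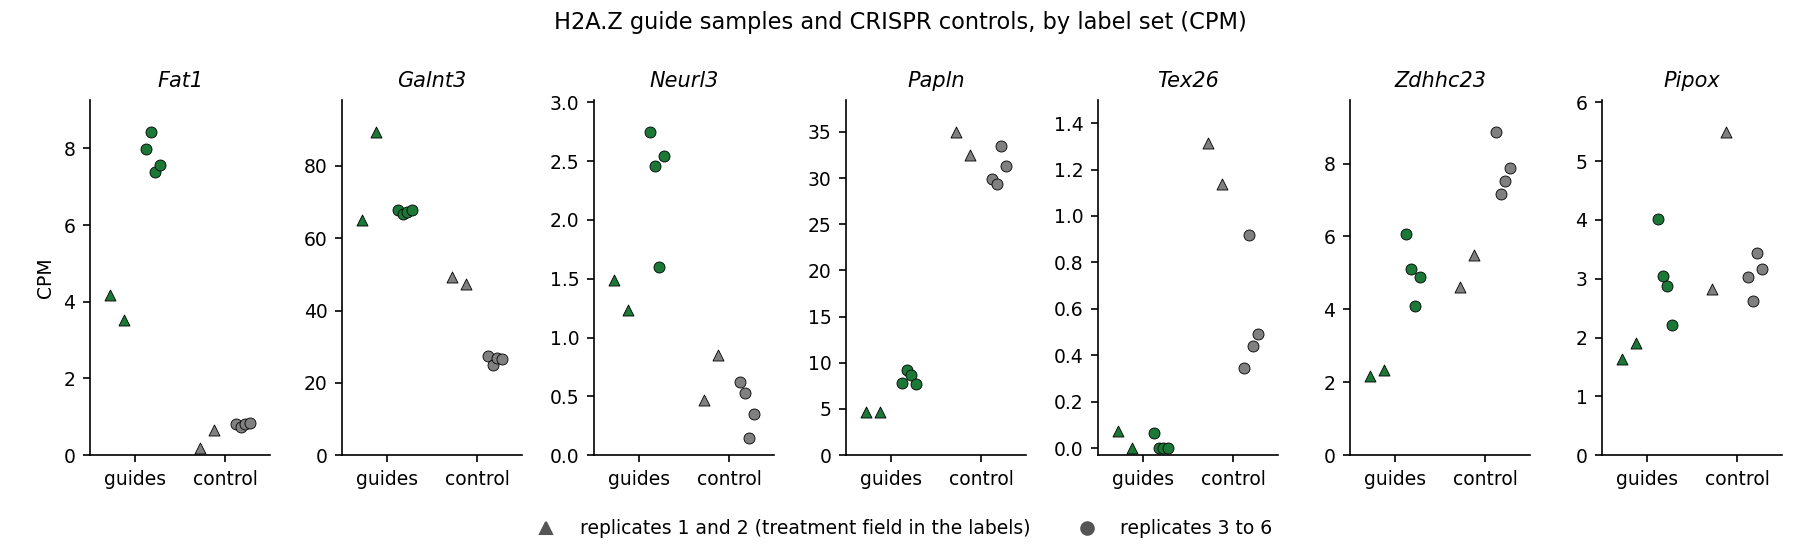
CPM (vertical, linear, own scale per gene) of 7 of the genes in the H2A.Z guide and CRISPR control samples, with triangles for replicates 1 and 2 and circles for replicates 3 to 6. Fat1, Galnt3 and Neurl3 lie higher and Papln and Tex26 lower in every guide sample, and Zdhhc23 separates within each set.

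The size of the guide effect differed between the label sets for 3 of the 6 tested genes; 15.7% of all 10662 genes passed that test. Galnt3 averaged 77.1 CPM in guide and 48.4 CPM in control samples of set 1, and 67.4 and 26.5 CPM in those of set 2, so that its log2 fold change was larger by 0.67 in set 2 (adjusted p = 0.00413, edgeR interaction test). Papln averaged 4.67 CPM in guide and 33.7 CPM in control samples of set 1, and 8.34 and 31.0 CPM in those of set 2, a fold change of -2.86 against -1.89 on the log2 scale (difference 0.96, adjusted p = 0.000691). Pipox averaged 1.77 CPM in guide and 4.16 CPM in control samples of set 1, and 3.04 and 3.06 CPM in those of set 2 (difference 1.21, adjusted p = 0.0445). The Pipox difference fell to 0.66 (adjusted p = 0.332) without control replicate 2, and it missed the threshold in 9 of 12 fits that left out a sample. For Fat1, Zdhhc23 and Neurl3 the difference missed the threshold. The direction of Fat1, Galnt3, Neurl3, Papln and Zdhhc23 was the same in both sets.

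Canonical Notch targets were a list of 22 genes, of which 15 were tested in the NICD samples. With wild-type BioNICD 7 were higher and 6 lower, beside 32.0% and 33.6% of all genes. The 6 include Notch1 (log2 fold change -1.205), whose counts include reads from the introduced NICD, so its fall cannot be read as that of the cell's own gene. With 4-OHT 8 were higher and 5 lower, beside 19.0% and 17.2%. Hes1 rose by 3.69 and Il2ra by 10.5 on the log2 scale with wild-type BioNICD, and by 1.66 and 2.06 with 4-OHT (edgeR adjusted p = 6.0e-21, 2.6e-29, 7.5e-17 and 6.2e-22). Of the lower targets, named after their values were seen, Cd44 fell by 2.73 and Bcl2 by 1.82 with wild-type BioNICD (adjusted p = 6.7e-24 and 2.1e-19).

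Relatives of the 10 genes were called in both directions. Among all genes, 32.0% were higher and 33.6% lower with wild-type BioNICD, and 19.0% and 17.2% with 4-OHT. The lists are small, and no list was tested against these shares. Of 18 tested Zdhhc genes other than Zdhhc23, 10 were higher and 3 lower with wild-type BioNICD, and 5 and 2 with 4-OHT. Zdhhc18 rose by 1.46 with wild-type BioNICD and by 0.75 with 4-OHT on the log2 scale (adjusted p = 5.7e-18 and 3.7e-12). Of 9 tested Galnt genes other than Galnt3, 6 were higher and 1 lower with wild-type BioNICD, among them Galnt10, which rose by 2.25, and Galnt2, which rose by 1.60 (adjusted p = 2.6e-13 and 1.9e-19). With 4-OHT 1 was higher and 2 were lower.

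Of 7 tested Adamts and Adamtsl genes, the relatives of Papln, 2 were higher and 1 lower with wild-type BioNICD, and 0 and 1 with 4-OHT. The shares of all genes were 32.0% and 33.6% with wild-type BioNICD, and 19.0% and 17.2% with 4-OHT. The gene that was lower in both was Adamtsl5, at 1.84 CPM with wild-type BioNICD and 3.97 CPM with the DEP mutant, and 0.196 CPM with 4-OHT and 0.836 CPM with ethanol. Its log2 fold changes were -1.07 and -2.07 (edgeR adjusted p = 0.000167 and 0.000388), and with the guides it fell by 4.33 (adjusted p = 6.4e-09), so Adamtsl5 fell in each comparison in which Papln was low. The 4 tested Neuralized and Mindbomb genes were all lower with wild-type BioNICD, by at most 0.61 on the log2 scale, where Neurl3 was higher.

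For the lists that follow, the shares of all genes were again 32.0% higher and 33.6% lower with wild-type BioNICD, and 19.0% and 17.2% with 4-OHT. The pathways around Pipox, glycine, sarcosine and lysine breakdown, had 8 tested genes. Of these, 0 were higher and 4 lower with wild-type BioNICD, and 0 and 3 with 4-OHT. Pex5, which encodes the receptor that imports peroxisomal enzymes, was among the lower genes in both (-0.57 and -0.16, adjusted p = 2.0e-10 and 0.00367). Of 3 tested fibrillar collagens, Col2a1 and Col11a2 were lower with wild-type BioNICD (-1.26 and -0.86, adjusted p = 0.0326 and 2.7e-07). Col2a1 rested on 24 counts with wild-type BioNICD (0.393 CPM, SD 0.272) and 30 with the DEP mutant (0.819 CPM, SD 0.427). Col11a2 had 487 and 455 counts. With 4-OHT Col2a1 and Col11a2 missed the threshold (0.23 and -0.06), and Col5a3 was lower (-0.66, adjusted p = 0.0230). Of 11 tested motile cilium genes, 4 were higher and 1 lower with wild-type BioNICD and 0 and 1 with 4-OHT; the lower gene, in both, was Mns1 (-0.83 and -0.45, adjusted p = 1.1e-09 and 1.4e-05). Of the Fat and Dachsous genes Fat4 alone was tested. Fat4 averaged 5.88 CPM in guide samples, against 0.447 CPM in controls (log2 fold change 3.85, adjusted p = 7.0e-08), the same direction as Fat1, and missed the threshold in both NICD comparisons. With the guides, 5 of 18 Zdhhc genes were higher and 7 lower, 6 of 9 Galnt genes were higher and 2 lower, and 7 of 11 Notch targets were higher and 2 lower, beside 31.8% higher and 32.7% lower among all genes tested. The 4 Neuralized and Mindbomb genes split into 2 higher and 2 lower with the guides, and the 6 tested cilium genes into 1 higher and 2 lower.

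**Figure D4:**
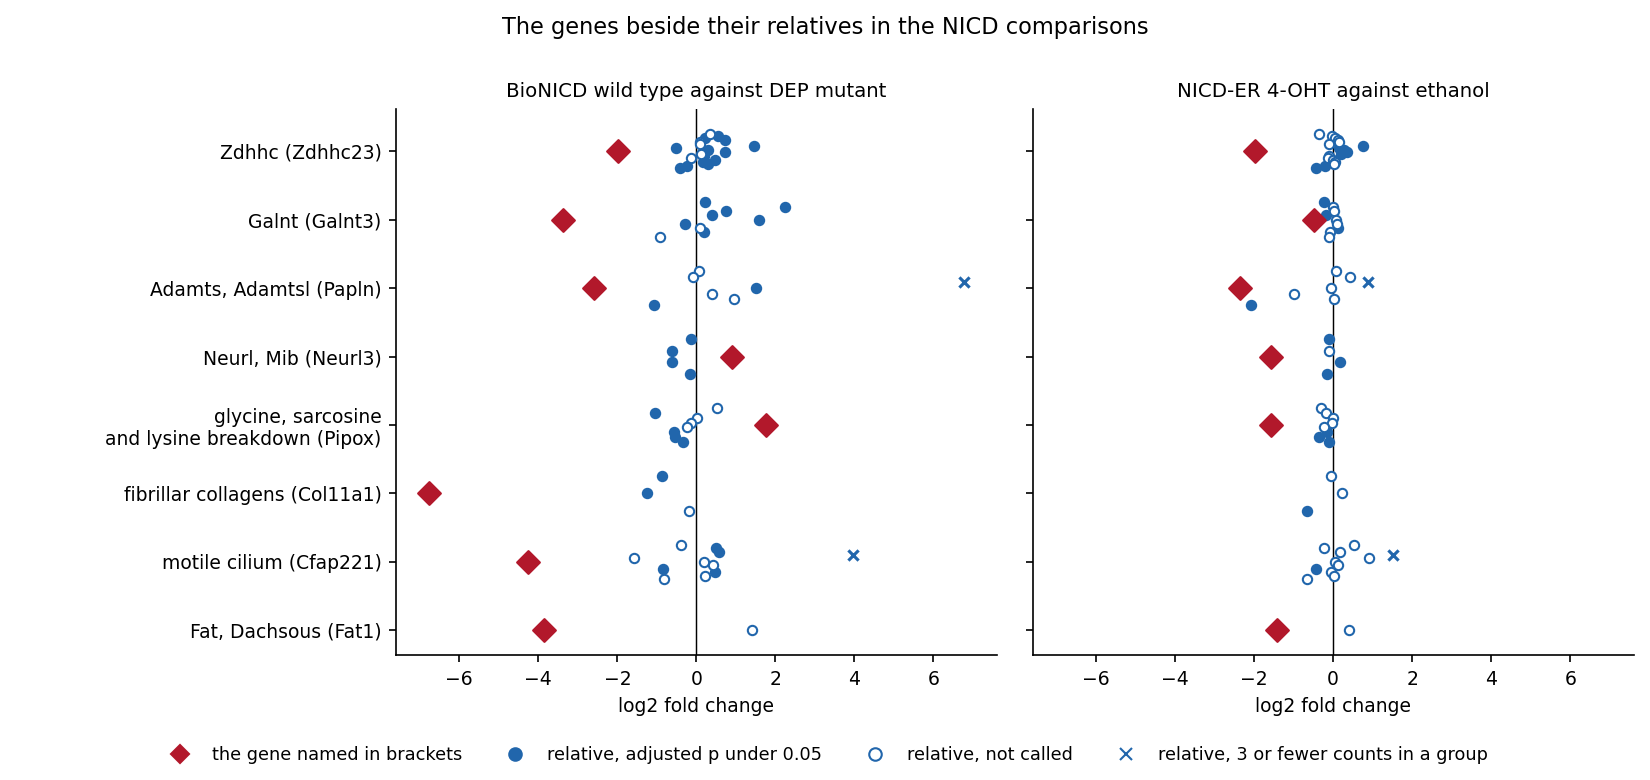
Log2 fold change (horizontal) of each gene named in brackets (diamond) and of the tested relatives in the same list (circles, filled where the adjusted p was under 0.05; crosses where a group had 3 or fewer counts) in the 2 NICD comparisons. Zdhhc23, Galnt3 and Papln lie to the left of all their tested relatives with wild-type BioNICD, and Neurl3 and Pipox to the right of theirs. The genes in brackets were chosen on these comparisons and the relatives were not, so nothing is read from their relative positions.

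Markers of other cell types moved with wild-type BioNICD, and some with 4-OHT and with the guides. The fibroblast list summed to 114 to 117 CPM with wild-type BioNICD and 0.705 to 1.24 CPM with the DEP mutant, of which Pdgfrb alone reached 1 CPM, with Pdgfra and Lum at 0 counts. The NK list summed to 95.8 to 99.2 CPM with wild-type BioNICD and 0.141 to 0.354 CPM with the DEP mutant, with Ncr1 and Nkg7 above 1 CPM and Klrb1c at 0 counts. The myeloid list summed to 105 to 108 CPM with wild-type BioNICD and 24.5 to 28.3 CPM with the DEP mutant, with 2 of 4 genes (Itgam and Cd68) above 1 CPM. Epithelial markers summed to at most 0.418 CPM in every group, and ciliated epithelium markers to at most 1.55 CPM. With 4-OHT the fibroblast list summed to 3.48 to 3.64 CPM, against 1.68 to 1.77 CPM with ethanol, and the NK list to 1.91 to 2.15 CPM, against 0.615 to 0.838 CPM with ethanol, both higher with no overlap. The myeloid list overlapped there, at 16.7 to 17.6 CPM with 4-OHT and 15.4 to 18.7 CPM with ethanol. In the CRISPR samples the myeloid list was lower with the guides with no overlap, at 4.76 to 11.4 CPM, against 16.1 to 36.9 CPM in the control, and Cd68 alone reached 1 CPM. The fibroblast list summed to 0 to 17.5 CPM with the guides and 0.379 to 12.6 CPM in the control, ranges that overlapped, and the NK list to at most 0.281 CPM in both. The part of these markers in the results on the 10 genes was not tested.

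Genes near the 10 on the same chromosome were compared with them. The 10 were chosen for falls in the NICD comparisons and the neighbours were not. Nothing is therefore read from neighbours that fell less in those comparisons. Within 500 kb of Papln, 12 tested genes had log2 fold changes between -0.55 and 0.88 with wild-type BioNICD and between -0.68 and 0.21 with 4-OHT, above those of Papln in both comparisons. The 8 tested neighbours of Cfap221 lay between -0.64 and 0.17 with wild-type BioNICD. The 10 tested neighbours of Zdhhc23 lay between -1.01 and 4.42 with wild-type BioNICD and between -1.31 and 3.28 with 4-OHT. The 7 tested neighbours of Tex26 had a median of -0.49 with wild-type BioNICD (range -1.31 to 2.19) and -0.37 with 4-OHT (-1.20 to 0.08), above Tex26 in each, with the median on the same side of 0. With the guides, the 6 tested there had a median of -0.47 (-1.14 to 0.46). Over 16 neighbours of Neurl3 and 29 of Pipox the medians were 0.07 and -0.09 with wild-type BioNICD and -0.17 and -0.09 with 4-OHT. Col11a1 had 2 tested neighbours, Galnt3 and Arhgap36 had 1 each, and Fat1 had none in that window.

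Across the 20 samples, which share lines within groups, the profiles of the genes were compared in pairs on a log2(CPM + 1) scale. Arhgap36 was most like Cfap221 (Pearson r = 1.0) and Col11a1 most like Arhgap36 (r = 0.97), the 3 genes of the DEP mutant samples. Elsewhere these 3 were at or near 0, so their correlations rest mainly on the DEP mutant samples, which the choice of genes used. Tex26 was most like Papln (r = 0.86), Zdhhc23 most like Papln (r = 0.83) and Neurl3 most like Fat1 (r = 0.71). Galnt3 and Pipox had no close partner, at 0.40 with Fat1 and 0.22 with Neurl3. Outside the 10 genes, the mean profile was most like P2rx4 (r = 0.863), Cdhr3 (0.838) and Cd69 (0.837). P2rx4, a gated ion channel for ATP, averaged 64.9 CPM with wild-type BioNICD and 133 CPM with the DEP mutant, and 62.7 CPM with 4-OHT and 105 CPM with ethanol. These correlations are descriptions over samples of 6 groups and were chosen for their size.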

How the data were processed

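The data are RNA-seq of 20 samples. Libraries came from ribosomal RNA-depleted total RNA and a stranded kit, per the labels' protocols. The authors counted reads per gene with featureCounts 1.5.0 on a UCSC mm9 annotation, per the file headers, and the deposited values are raw counts. The recorded command sets no strand option, so reads of antisense genes cannot be told apart; none of the 10 genes shares exon bases with another. FastQC, Trimmomatic, STAR and DESeq2 are named in the submitters' processing notes, without versions.

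The 10 genes and all gene lists, motifs and marker lists were chosen with earlier results of these data known. Named genes were the 10 members, at most the 4 strongest called genes of each list, and a few Notch targets. The main test was edgeR's quasi-likelihood test (edgeR 4.0.16, R 4.3.3, TMM scaling, filterByExpr, Benjamini-Hochberg adjustment over all genes tested, threshold 0.05). The guide comparison used the 12 CRISPR samples with label set as covariate (10662 genes, biological coefficient of variation 7.95%). Both NICD comparisons used 1 model of 8 samples (12499 genes, 3.58%). An SE is the absolute log2 fold change divided by the square root of its F. The replicate pairs differed by a mean chi-square per gene of 2.66 to 92.5, where sampling noise gives 1, so none was merged. Guide samples 3 and 4 (2.75) and 5 and 6 (3.23) were far closer than the other guide pairs (30.2 to 92.5). Control samples 3, 4 and 5 differed by 2.99 to 4.43 and 1 and 2 by 5.59, against 21.9 to 56.9 for the other control pairs. The tests count each sample as independent, which these pairs may not be, so p-values of the guide comparison may be too small. The test was checked on simulated data. A floor of 3 counts over a group was used where a gene had none. Alternatives were RLE and upper quartile scaling, no filter, DESeq2 1.42.0, a replicate block, leaving out samples, label sets alone, no label set covariate, a model of all 20 samples, and leaving out samples with over 5% of counts in Rn45s.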

Additional observations from a re-analysis of the deposited data

Results flagged for a closer look

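In 6 of the 17 sets of 6 samples tested for a sample far from the rest (a gene in a CRISPR group), 1 sample stood apart. Chance flags about 1 in 20 sets of normally spread values. These sets mix the 2 label sets and include genes with few counts, so that rate does not hold here. Col11a1 had 0.298 CPM in guide replicate 1 and 0.470 CPM in control replicate 1, both above the others of their group. Cfap221 had 0.0639 CPM, a single count, in guide replicate 3 and 0 elsewhere. Fat1 was lowest in control replicate 1, at 0.188 CPM. Galnt3 was highest in guide replicate 2, at 89.3 CPM. Pipox was highest in control replicate 2, at 5.49 CPM. Control replicate 1 thus stood apart for both Col11a1 and Fat1, and all of these samples but guide replicate 3 belong to label set 1.

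The difference between H2A.Z guide and control samples changed with the label set for Galnt3 (by 0.67 on the log2 scale), Papln (0.96) and Pipox (1.21). These values are set 2 minus set 1, by edgeR's interaction test.

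Neurl3 and Pipox moved in opposite directions in the 2 NICD comparisons. The log2 fold change of Neurl3 was 0.91 with wild-type BioNICD and -1.58 with 4-OHT, and that of Pipox was 1.75 and -1.57. In each case every sample of the first group lay on the same side of every sample of the second. The difference was not tested.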

How the results depend on the processing

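With the guides, the direction of Fat1, Galnt3, Neurl3, Papln and Zdhhc23 and their side of the threshold held under every alternative run, except that Neurl3 missed it in label set 1 alone (log2 fold change 1.02). Over those alternatives Fat1 ranged from 3.14 to 3.35, Galnt3 from 0.67 to 1.35, Papln from -2.86 to -1.89 and Zdhhc23 from -1.16 to -0.62. The number of genes called fell to 1563 higher and 1385 lower in label set 1 alone, where 8 fewer samples were used. In a model of all 20 samples, 2597 genes were higher and 2073 lower with wild-type BioNICD, and 578 and 302 with 4-OHT; the cause was not tested. In the NICD comparisons, 8 of the 10 genes stayed at least 2-fold lower with wild-type BioNICD, and 6 or 7 with 4-OHT; the seventh, without 4-OHT replicate 2, was Col11a1, which then had 0 counts against 2. The number of genes whose guide effect differed between label sets ran from 851 (without control replicate 1) to 4062 (without guide replicate 2), and 2 or 3 of the 10 genes were among them. Of 508 values of single members under alternatives, 476 kept their call or stayed within the replicate spread. The fitted values of Col11a1 (-9.79 to -5.27) and Tex26 (-7.97 to -4.63) in the BioNICD comparison and of Col11a1 in the NICD-ER comparison (-3.10 to 0.56, a change of sign) moved most; each had 2 counts with wild-type BioNICD or 4-OHT; low counts also limit Cfap221, Arhgap36 and Col11a1 outside the DEP mutant.

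Samples with the same replicate number were not treated as pairs. The correlations of their deviations were 0.385 in the guide and control samples for numbers 1 and 2 and between -0.01 and 0.064 for the others. They were -0.019 in the BioNICD samples and 0.067 in the NICD-ER samples. In label set 1, guide and control samples of the same number thus deviated partly together, and the cause was not tested. With a replicate block, 3173 genes were higher and 3239 lower with the guides, 4090 and 4316 with wild-type BioNICD, and 2624 and 2388 with 4-OHT. The block changed the call of none of the 6 tested members, with 3 higher and 2 lower.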
